A study of Mus musculus with 15 samples.

Results

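The nuclear-encoded subunits of respiratory complexes II, III, IV and V were followed in single mouse oocytes. The members were all protein-coding nuclear genes named Sdha, Sdhb, Sdhc, Sdhd or Cyc1, or with symbols beginning Uqcr, Cox4i, Cox5, Cox6, Cox7, Cox8 or Atp5. This rule gave 50 gene IDs, of which 48 were among the 28785 genes with a count in any oocyte. They fall into 4 members of complex II, 9 of complex III, 18 of complex IV and 19 of complex V. Each library held the RNA of 1 oocyte, made with MATQ-seq, a total-RNA method for single cells. The 6 MII oocytes, arrested in the second meiotic metaphase, came from mice primed with 7 IU of PMSG (pregnant mare serum gonadotropin) and then, at about 48 h, given 7 IU of hCG (human chorionic gonadotropin). A further 20 h later the complexes of oocyte and cumulus cells were removed from the oviducts, and the cumulus cells were digested with 300 IU/mL hyaluronidase. The 9 GV oocytes, fully grown and still holding the germinal vesicle, came from mice given 7 IU of PMSG alone, 44 h before. The mice were females, about 6 to 8 weeks old where the labels give an age (GV donors), with no strain given and no record of which oocytes shared a mouse. Each stage therefore counts as 1 sample, and no test between the stages was made.

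Complex II, succinate dehydrogenase, passes electrons from succinate to ubiquinone and also works in the citric acid cycle. Complex III passes them from ubiquinol to cytochrome c, complex IV from cytochrome c to oxygen, and complex V, the ATP synthase, uses the proton gradient that the chain builds. Complexes III, IV and V also hold subunits made inside mitochondria, so their assembly needs products of both genomes. Oocytes rely on mitochondrial ATP through growth and meiosis, and they transcribe little or nothing between the GV and MII stages, when many stored mRNAs are degraded or translated.

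Genes of the respiratory chain are classically described as targets of NRF-1 and of ETS-family factors of the NRF-2/GABP type. Among the 50 IDs, 37 genes had a promoter in the RefSeq table of build GRCm38.p6, with 40 promoters in all, each spanning 250 bases before and 50 bases after a start. The NRF-1 letters, a pair of GCGC with any base and then a T between them, searched on both strands, stood in 10 of these 40 promoters, or 25%, against 4.60% of all 32851 promoters in the table. The ETS letters CCGGAAG, on both strands, stood in 13, or 32.5%, against 8.86% of all promoters. The YY1 letters (AA, any base, then ATGG and CGGC without a gap), also on both strands, stood in 0 of the 40 and in 0.986% of all. These letters are matches only, and an NRF-1 match overlaps no ETS match in the sequences below. The 4 promoters that held both the NRF-1 and the ETS letters are printed, with the matches in capitals (CTTCCGG is the ETS match read on the other strand). They were picked because they include members near opposite ends of the results (Cox6a1 and Atp5k) and members within 2-fold of the median gene (Atp5h and Sdhd). All 4 genes lie on the minus strand, and each sequence runs 5′ to 3′ along the gene. They are chr5:115348909-115349208 for Cox6a1, chr5:108434350-108434649 for Atp5k, chr11:115419870-115420169 for Atp5h and chr9:50603800-50604099 for Sdhd.
Cox6a1: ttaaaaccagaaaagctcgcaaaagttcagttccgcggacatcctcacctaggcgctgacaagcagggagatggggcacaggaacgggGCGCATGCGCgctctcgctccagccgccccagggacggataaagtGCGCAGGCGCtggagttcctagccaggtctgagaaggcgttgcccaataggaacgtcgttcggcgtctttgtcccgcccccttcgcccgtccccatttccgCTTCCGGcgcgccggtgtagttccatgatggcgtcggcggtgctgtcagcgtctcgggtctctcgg
Atp5k: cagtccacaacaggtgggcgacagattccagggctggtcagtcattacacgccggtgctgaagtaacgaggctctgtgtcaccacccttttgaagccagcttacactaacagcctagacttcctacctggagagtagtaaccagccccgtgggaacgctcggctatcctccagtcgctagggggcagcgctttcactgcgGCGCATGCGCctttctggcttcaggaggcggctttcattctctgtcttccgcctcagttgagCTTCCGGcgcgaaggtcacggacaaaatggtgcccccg
Atp5h: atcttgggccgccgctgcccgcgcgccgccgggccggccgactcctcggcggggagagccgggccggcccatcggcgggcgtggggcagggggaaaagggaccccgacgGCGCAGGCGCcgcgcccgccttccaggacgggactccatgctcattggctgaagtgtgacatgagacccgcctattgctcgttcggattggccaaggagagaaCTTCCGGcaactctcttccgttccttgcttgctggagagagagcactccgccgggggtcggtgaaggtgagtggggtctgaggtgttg
Sdhd: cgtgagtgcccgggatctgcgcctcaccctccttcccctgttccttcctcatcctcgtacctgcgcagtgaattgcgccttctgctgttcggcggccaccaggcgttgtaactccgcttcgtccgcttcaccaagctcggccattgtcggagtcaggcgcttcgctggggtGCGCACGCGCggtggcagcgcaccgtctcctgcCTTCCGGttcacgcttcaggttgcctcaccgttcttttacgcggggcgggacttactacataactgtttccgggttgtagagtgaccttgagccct
The MII/GV ratio of these genes ran from 2.43 for Cox6a1 to -3.73 for Atp5k, with Atp5h at 0.57 and Sdhd at 0.18 (log2, relative to the median gene, as described next).

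The libraries held 808641 to 2348281 counts in MII oocytes and 3687610 to 7103063 in GV oocytes. A single unnamed feature, ENSMUSG00000119584, took 38.3% of MII counts (15.7% to 61.2% by oocyte), none in GV1 to GV6 and 3.43% to 11.2% in GV7 to GV9, so counts per 1e6 counts (CPM) of nearly all genes were pressed down in MII oocytes. The median of 10090 measured genes stood at -0.98 (log2 MII/GV of CPM), and ratios are therefore given relative to that median gene, with CPM beside them. Genes that reached 5 CPM in whichever stage was higher are called measured. The figure after ± is the spread between oocytes, the root of the summed squared standard deviations of the 2 stages (MII n = 6, GV n = 9). It is taken on log2(CPM + 1), which compresses values near 0, so it can be too narrow for genes with few MII counts. The files of the first 6 GV oocytes and those of the last 3 (GV7 to GV9) carry different headers, and the MII files another kind, so effects of stage and of file set cannot be told apart. The 10 oocyte markers summed to 4764 to 6754 CPM in MII oocytes and 6777 to 27166 CPM in GV oocytes, and each had counts in both stages. Markers of cumulus and granulosa cells summed to 14.0 to 83.7 CPM in MII oocytes, with 6 of 12 markers at 0 over the stage, and to 126 to 496 CPM in GV oocytes, with 1 at 0. The part of those cells in the members' levels was not tested.

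Of the 50 IDs, 39 were measured, 9 were under the minimum and 2 had no count in any oocyte (Cox8b and the second ID of Atp5o). Of the 39, 19 reached the minimum in both stages, 1 only in MII oocytes and 19 only in GV oocytes, so the filter itself favours members that are high in GV oocytes. The median ratio was -0.99 ± 1.02, where the spread of a list's median is that of its oocytes' median levels. At least 2-fold lower in MII oocytes were 19 members, where 15.5% of all measured genes were, and at least 2-fold higher were 5, where 12.1% of all measured genes were. The other 15 lay within 2-fold of the median gene. Scaled to CPM with no centring, 24 members were lower by at least 2-fold and 2 higher, where 49.1% and 2.01% of all measured genes were. Without GV4 the count of lower members was 14 of 36, where 15.8% of all measured genes were lower. Without MII2 the count of higher members was 8 of 40, where 13.3% of all measured genes were higher. With no minimum, 25 of 48 members were at least 2-fold lower and 7 higher, where 24.8% and 25.4% of 28785 genes were. The median level of the measured members in single oocytes, relative to each oocyte's median gene, ran from -2.29 to -0.40 in MII oocytes and from -1.85 to 0.18 in GV oocytes (log2), so the stages overlapped.

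**Figure D1:**
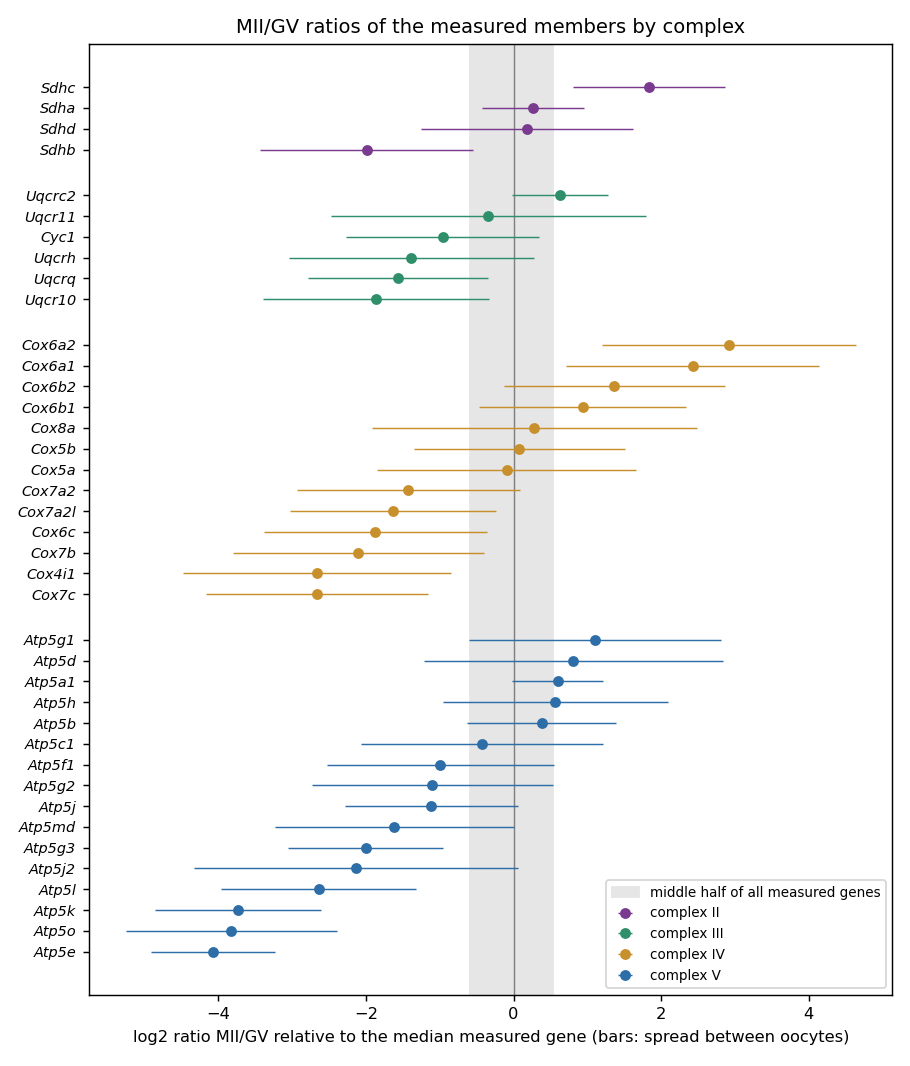
Log2 MII/GV ratio of each of the 39 measured members relative to the median measured gene (x axis), grouped by complex from II at the top to V at the bottom. Points are ratios of summed counts, bars the spread between oocytes (6 MII and 9 GV), and the grey band runs from -0.59 to 0.54, the middle 50% of all measured genes. The ratios run from 2.92 for Cox6a2 to -4.07 for Atp5e, and complexes IV and V each reach to both sides of the band.

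Summed over all members, the transcripts took 516 to 1199 CPM in MII oocytes, with a median of 712, and 657 to 2683 CPM in GV oocytes, with a median of 938. Pooled over oocytes, the sums were 753 CPM in MII oocytes (95% Poisson interval 736 to 770) and 1187 CPM in GV oocytes (1177 to 1197). With the unnamed feature left out of the totals, they were 1221 CPM in MII oocytes and 1211 CPM in GV oocytes, so on that scale the pooled sums nearly coincided. GV4, which had the highest sum of any oocyte, had 146 CPM of cumulus and granulosa markers, within the range of the other GV oocytes.

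The make-up of the members' own counts differed between the stages, and shares within a set do not depend on the scaling to the library. Complex II took 25.4% to 31.6% of the members' counts in MII oocytes, with a median of 28.4%, and 9.26% to 21.8% in GV oocytes, with a median of 15.8%. Every MII oocyte was above every GV oocyte of both file sets. Of the complex II genes, only Sdhc had a higher pooled share in MII oocytes, at 23.5% against 8.25% in GV oocytes. Sdha took 3.94% in MII and 4.13% in GV oocytes, Sdhd 0.924% and 1.03%, and Sdhb 0.179% and 0.925%. Complex III took 2.32% to 11.8% in MII oocytes and 7.67% to 15.0% in GV oocytes, and the stages overlapped. Complex IV took 22.3% to 38.9% in MII oocytes and 23.3% to 42.6% in GV oocytes, and complex V 33.2% to 44.7% in MII oocytes and 37.6% to 51.2% in GV oocytes. Shares of a set sum to a whole, so one complex cannot be higher without another being lower.

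Of the measured members, 2 had a share of the members' counts that was higher in each MII oocyte than in any of the GV oocytes, where 0.575% of all measured genes were when divided by the same counts, and 4 had a lower share in every MII oocyte, where 1.35% of all genes were. The 2 higher ones were Sdhc, a membrane anchor of complex II, at 18.0% to 28.9% in MII oocytes and 5.72% to 12.0% in GV oocytes, and Cox6a1, the widely expressed form of subunit 6a of complex IV, at 6.99% to 23.8% in MII oocytes and 0.683% to 5.63% in GV oocytes. Pooled over the MII oocytes they held 23.5% and 15.4% of the members' counts, not scaled to transcript length, the highest shares of any members there. The 4 lower ones were Cox4i1, at 0.0827% to 2.28% in MII oocytes and 5.66% to 14.2% in GV oocytes, Uqcrq, Atp5k and Atp5e.

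**Figure D2:**
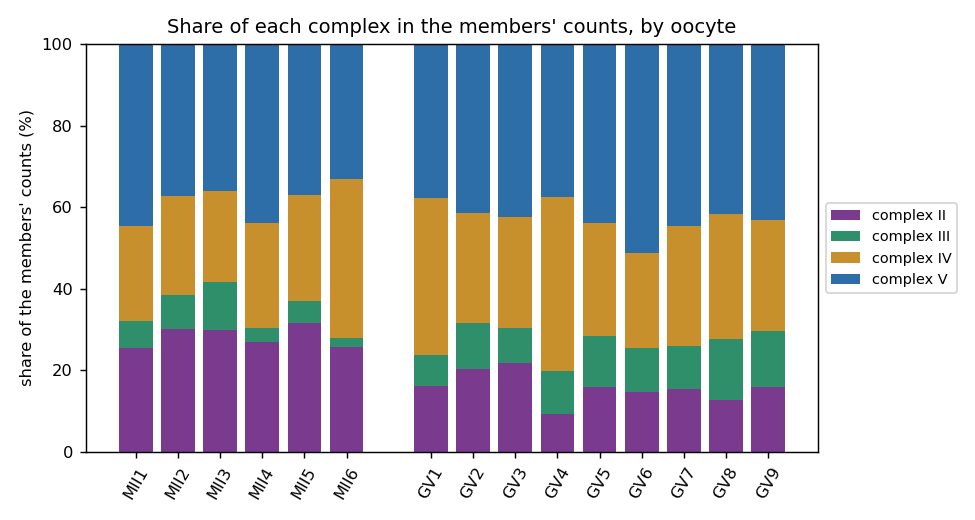
Share of each complex in the summed counts of the members (y axis, percent) in each oocyte, with the 6 MII oocytes on the left and the 9 GV oocytes on the right. The lowest band is complex II, at 25.4% to 31.6% in MII oocytes and 9.26% to 21.8% in GV oocytes. Within it, Sdhc alone took 18.0% to 28.9% in MII oocytes and 5.72% to 12.0% in GV oocytes.

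Complex II had a median ratio of 0.22 ± 0.77 over its 4 members, which differed among themselves: Sdhc was at least 2-fold higher, Sdhb at least 2-fold lower, and Sdha and Sdhd lay between. Sdhc stood at a lowest, median and highest of 103, 141 and 346 CPM in MII oocytes and 55.5, 86.3 and 153 CPM in GV oocytes. Its ratio was 1.84 ± 1.03, and its CPM was also higher in the pooled MII oocytes (177 against 97.9 CPM in GV). The CPM ranges overlapped, but relative to each oocyte's median gene every MII oocyte was above every GV oocyte, as in 1.61% of all measured genes. Sdhb, the iron-sulfur subunit, had 0, 0.303 and 7.28 CPM in MII oocytes and 2.96, 10.7 and 33.2 CPM in GV oocytes. It was absent from 3 MII oocytes and present in all 9 GV oocytes. Its ratio of -1.99 ± 1.44 rested on 13 MII counts, most of them in MII3, and was -3.60 without that oocyte. Sdha, the catalytic flavoprotein, had 20.4, 29.5 and 50.7 CPM in MII oocytes and 28.1, 53.6 and 60.5 CPM in GV oocytes, a ratio of 0.26 ± 0.69. Sdhd, the other membrane anchor, had 2.07, 6.25 and 11.9 CPM in MII oocytes and 1.41, 12.7 and 22.2 CPM in GV oocytes, a ratio of 0.18 ± 1.43 that was -0.35 without MII6. Both lay within their spread of the median gene. The median of the complex was -0.16 without MII6.

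In complex III, 6 of 9 members were measured, with a median ratio of -1.17 ± 1.20. At least 2-fold lower in MII oocytes were 3 (50%, beside 15.5% of all measured genes), the small accessory subunits Uqcr10, Uqcrq and Uqcrh. None was at least 2-fold higher, where 12.1% of all measured genes were. Uqcrq had a lowest, median and highest of 0.518, 4.83 and 8.54 CPM in MII oocytes and 13.9, 21.2 and 56.3 CPM in GV oocytes. It was 1 of 5 members whose CPM in each MII oocyte lay below that of all GV oocytes, as in 4.65% of all measured genes. No member was higher in CPM in every MII oocyte, as 0.0892% of all genes were. The ratio of Uqcrq was -1.56 ± 1.22.

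Uqcrh, the hinge protein next to cytochrome c1 and the complex III member with the highest level per kilobase of transcript in both stages (16.7 CPM per kb in MII and 86.7 in GV oocytes), had 0.852, 9.93 and 22.3 CPM in MII oocytes and 13.0, 26.2 and 135 CPM in GV oocytes. Its ratio was -1.38 ± 1.66, within its spread, and -0.99 without GV4, the oocyte with its highest value. Uqcr10 was found in 2 MII oocytes and had 0, 0 and 3.64 CPM in MII oocytes and 1.17, 4.16 and 21.8 CPM in GV oocytes. Its ratio was -1.86 ± 1.53, and -4.01 without MII5, which held most of its 7 MII counts. Uqcr11 had 0, 1.68 and 12.7 CPM in MII oocytes and 1.17, 6.59 and 25.5 CPM in GV oocytes. Its ratio of -0.34 ± 2.13 was 0.34 with the first 6 GV oocytes alone, -1.49 with GV7 to GV9 alone and -1.45 without MII5, so its direction turned with the oocytes used.

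The larger subunits of complex III differed among themselves. Uqcrc2, a core protein, had 7.24, 18.4 and 29.1 CPM in MII oocytes and 9.43, 23.3 and 36.1 CPM in GV oocytes, a ratio of 0.63 ± 0.65. Cyc1, cytochrome c1 itself, had 0, 1.5 and 8.66 CPM in MII oocytes and 2.11, 10.1 and 24.7 CPM in GV oocytes, a ratio of -0.96 ± 1.31 that was -1.49 without MII3 and also past -1 without MII1, GV1, GV2 or GV5. Uqcrc1, the partner core protein of Uqcrc2, was just under the minimum, with 4 counts over all MII oocytes and 216 over all GV oocytes. Its ratio of -2.42 ± 0.98 therefore lay on the other side of the median gene from that of Uqcrc2. The Rieske iron-sulfur protein Uqcrfs1 (3 MII and 129 GV counts) and Uqcrb (30 MII and 197 GV counts) were also under the minimum. Uqcrfs1 was 9.43-fold lower in MII oocytes in CPM, with a counting interval of 3.16 to 46.3.

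Complex IV had the widest range upwards. At least 2-fold lower in MII oocytes were 6 of its 13 measured members (46.2%) and at least 2-fold higher 3 (23.1%). Of all measured genes, 15.5% and 12.1% were. The median ratio of the 13 was -0.09 ± 1.32. The median was positive without any one of MII1, MII2, MII3 and MII4, at 0.04 to 0.18. The higher ones were Cox6a2, Cox6a1 and Cox6b2, all forms of the nuclear subunits 6a and 6b. The lower ones were Cox4i1, Cox7c, Cox7b, Cox6c, Cox7a2l and Cox7a2, which include all measured members of the Cox7 names. The pooled CPM itself was higher in MII than in GV oocytes for Cox6a2, Cox6a1, Cox6b2, Sdhc and Atp5g1. For Atp5g1 it was 41.9 against 38.6 CPM. The share of all measured genes higher in pooled CPM was not counted, and their median ratio on that scale was -0.98 (log2).

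Cox6a1 had a lowest, median and highest of 41.5, 83.2 and 203 CPM in MII oocytes and 4.92, 38.2 and 95.4 CPM in GV oocytes, and the ranges overlapped. Its ratio was 2.43 ± 1.72, and 1.40 without MII5 and MII6, the oocytes with its highest values. Per kilobase of transcript it was first of all members in MII oocytes (203 CPM per kb) and stood at 74.6 in GV oocytes. Cox6a2, known as the heart and muscle form of the same subunit, had 2.47, 15.9 and 23.8 CPM in MII oocytes and 0.190, 4.06 and 11.7 CPM in GV oocytes, a ratio of 2.92 ± 1.72. It was the highest ratio of any measured member, and 2.18 against GV7 to GV9. Both 6a forms were thus higher, and Cox6a2 took 12.5% of the 6a counts in MII oocytes (95% exact interval 10.7 to 14.4) and 9.23% in GV oocytes (8.01 to 10.6), with shares by oocyte of 4.44% to 20.4% in MII and 0.198% to 18.8% in GV oocytes.

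Cox6b2, known as the testis form of subunit 6b, had 3.11, 10.8 and 23.1 CPM in MII oocytes and 1.65, 8.72 and 29.2 CPM in GV oocytes. Its ratio was 1.36 ± 1.5, within its spread, 0.96 without MII5 and 0.44 against GV7 to GV9. Cox6b1 had 3.29, 5.45 and 13.3 CPM in MII oocytes and 1.41, 5.24 and 18.6 CPM in GV oocytes, a ratio of 0.94 ± 1.40 that passed 1 without MII2, MII3, GV4 or GV8. Cox6b2 held the larger part of the pooled 6b counts in both stages, 64.0% in MII oocytes and 56.9% in GV oocytes, and was also above Cox6b1 per kilobase (21.4 against 10.8 CPM per kb in MII oocytes, 16.5 against 11.2 in GV oocytes). The shares by oocyte, 33.3% to 80.8% in MII and 42.2% to 87.5% in GV oocytes, overlapped.

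Cox4i1, the common form of the regulatory subunit 4, stood at 11.8 CPM per kb of transcript in MII oocytes and 148 in GV oocytes, where it was first of all members on that scale. It had 0.518, 6.99 and 27.3 CPM in MII oocytes and 37.2, 73.6 and 380 CPM in GV oocytes, so every MII oocyte was below every GV oocyte. Its ratio was -2.66 ± 1.81, and -3.54 without MII5. Its annotation overlaps that of Emc8 on the opposite strand by 154 bases, and whether strand was used in counting is not known from the sources at hand. Cox4i2, the form linked in mammals to lung and to low oxygen, was just under the minimum, at 4.36 CPM in MII oocytes and 0.774 CPM in GV oocytes. In the order of their numbers, the MII oocytes had 11, 0, 10, 11, 1 and 9 counts of Cox4i2, and the 9 GV oocytes had 0 to 15, from far larger libraries. Cox4i2 made up 45.5%, 47.8%, 52.9% and 91.7% of the subunit 4 counts in 4 MII oocytes and 2.17% in MII5, against 0% to 4.12% in the GV oocytes. MII2 had fewer than 10 counts of the pair. Pooled, the share was 32.8% in MII oocytes (95% exact interval 24.8 to 41.7) and 0.687% in GV oocytes (0.476 to 0.959). The difference in share goes with Cox4i1 counts of 86 in all MII oocytes and 4916 in all GV oocytes as well as with Cox4i2 counts of 42 in MII and 34 in GV oocytes.

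**Figure D3:**
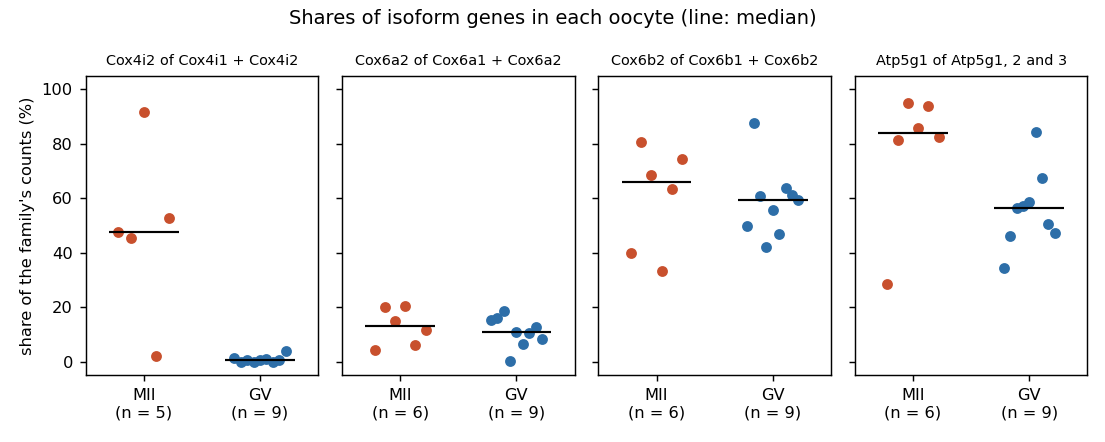
Share of 1 isoform gene in the counts of its family (y axis, percent) in each oocyte with at least 10 counts of the family, MII on the left and GV on the right of each panel, with a line at the median. The Cox4i2 panel shows 4 of 5 MII oocytes above 45% and all 9 GV oocytes at or below 4.12%. The remaining MII oocyte, MII5, lies at 2.17%, within the GV range. In the other panels the stages overlap too.

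The Cox7 names and their neighbours were low in MII oocytes. Cox7c had 0, 1.43 and 2.47 CPM in MII oocytes and 1.41, 8.12 and 41.7 CPM in GV oocytes, a ratio of -2.66 ± 1.51. Cox7b had 0, 1.06 and 3.71 CPM in MII oocytes and 1.86, 9.38 and 31.1 CPM in GV oocytes, a ratio of -2.10 ± 1.69. Cox7a2l, which helps to join complexes III and IV into supercomplexes, had 1.21, 11.1 and 24.3 CPM in MII oocytes and 25, 51.4 and 203 CPM in GV oocytes, with no overlap. Its ratio was -1.63 ± 1.40, -2.31 without MII6 and -0.65 against GV7 to GV9. Cox7a2, the widely expressed 7a form, had 0, 2.16 and 3.83 CPM in MII oocytes and 2.06, 8.72 and 32.4 CPM in GV oocytes, a ratio of -1.42 ± 1.51 that was -0.83 with the first 6 GV oocytes alone. Cox7a2l held 85.7% of the pooled counts of the Cox7a names in MII oocytes and 87.0% in GV oocytes. By oocyte the share was 75% to 94.7% in the 5 MII oocytes with at least 10 such counts, 87.9% to 96.4% in the first 6 GV oocytes and 55.1% to 73.1% in GV7 to GV9, so the GV file sets stood on either side of most MII oocytes. Cox7a1, the heart and muscle form, had 0 MII and 7 GV counts, and Cox7b2 had 2 MII and 0 GV counts, both too few to compare. Cox6c, at a ratio of -1.87 ± 1.51, and the subunits Cox5a (-0.09 ± 1.75, but 0.62 with the first 6 GV oocytes alone and -1.28 with the last 3) and Cox5b (0.07 ± 1.43) were the rest of the measured set beside Cox8a. Cox8a had 2.91, 5.88 and 17.3 CPM in MII oocytes and 0.141, 7.22 and 51.8 CPM in GV oocytes, a ratio of 0.28 ± 2.20 that was -0.40 without MII6, 0.92 with the first 6 GV oocytes alone and -0.84 with the last 3. It held all 82 MII counts of the Cox8 genes and 612 of 613 GV counts, with the single other one from Cox8c.

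Complex V showed a split by subunit. Of its 16 measured members, with a median of -1.11 ± 1.16, 9 (56.25%) were at least 2-fold lower in MII oocytes and 1 (6.25%) higher. Of all measured genes, 15.5% and 12.1% were. Among the lower ones, only Atp5g2 and Atp5j reached the 5 CPM minimum in MII oocytes too. The median was 0.27 over the 7 members that reached 20 CPM, and -1.51 over 18 members with no minimum. The catalytic head lay within 2-fold of the median gene. Atp5a1, subunit alpha, had a lowest, median and highest of 68.0, 99.4 and 158 CPM in MII oocytes and 69.5, 134 and 222 CPM in GV oocytes. Its ratio was 0.60 ± 0.62. Atp5b, subunit beta, stood at 0.38 ± 1.01. Both ratios were below 0 in CPM with no centring. The central stalk ran apart, with subunit gamma (Atp5c1) at -0.43 ± 1.64, subunit delta (Atp5d) at 0.81 ± 2.02 and subunit epsilon (Atp5e) at the lowest ratio of all measured members. Atp5d had 0, 2.75 and 23.5 CPM in MII oocytes and 0.507, 3.25 and 10.9 CPM in GV oocytes, and its ratio passed 1 without MII2, at 1.18, or without MII3.

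Atp5e had 0, 0 and 0.728 CPM in MII oocytes and 3.06, 6.66 and 24.8 CPM in GV oocytes. Only 2 of its counts came from MII oocytes, 1 each in MII2 and MII3, against 379 from GV oocytes, where each of the 9 had it. It was 41.6-fold lower in MII oocytes in CPM, with a counting interval of 11.4 to 345, and its ratio was -4.07 ± 0.84. Taking log2(CPM + 1) compresses that spread, since the MII values were 0 to 0.728 CPM. Atp5e was the 1 member whose level relative to the median gene in each MII oocyte also lay below that of all GV oocytes, as in 0.684% of all measured genes. Atp5k, subunit e of the membrane part, had 0, 0.692 and 1.82 CPM in MII oocytes and 5.36, 17.8 and 63.3 CPM in GV oocytes. Its ranges did not overlap either, and its ratio was -3.73 ± 1.12 on 7 MII and 897 GV counts. The other small membrane subunits lay in the same direction, with Atp5l (subunit g) at -2.64 ± 1.32, Atp5j2 (subunit f) at -2.13 ± 2.19 and Atp5md at -1.61 ± 1.61. Atp5mpl was just under the minimum, at -1.64 ± 1.15.

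**Figure D4:**
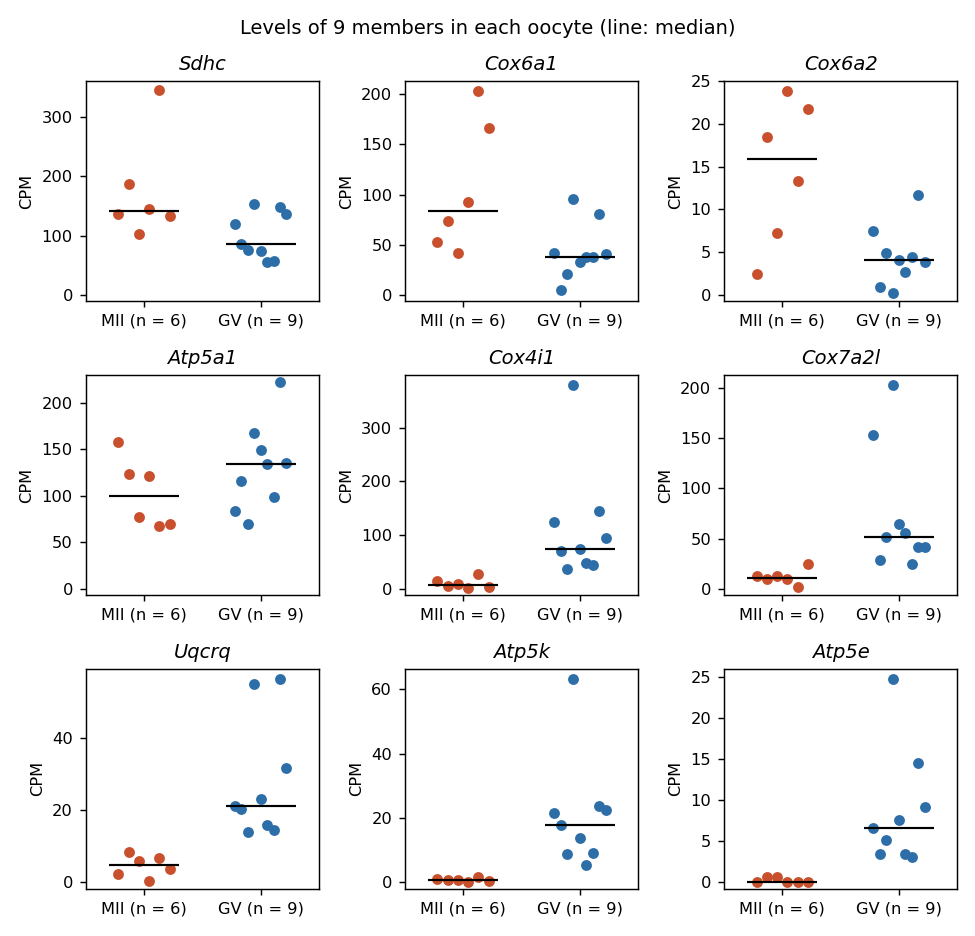
CPM of 9 members in each oocyte (y axis, linear and scaled to each panel), MII on the left and GV on the right, with a line at the median. Cox4i1, Cox7a2l, Uqcrq, Atp5k and Atp5e have no overlap between the stages, and Sdhc, Cox6a1, Cox6a2 and Atp5a1 overlap.

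The peripheral stalk of complex V was mixed too. Atp5h, subunit d, had 24.7, 49.4 and 166 CPM in MII oocytes and 33.5, 64.3 and 266 CPM in GV oocytes, and was second of all members per kilobase in both stages (104 CPM per kb in MII and 139 in GV oocytes). Its ratio was 0.57 ± 1.52, and -0.06 without MII5. Atp5f1, subunit b, stood at -0.99 ± 1.54 and Atp5j, coupling factor 6, at -1.11 ± 1.17. Atp5o, the subunit that confers oligomycin sensitivity, had 0, 0 and 1.31 CPM in MII oocytes and 1.03, 3.89 and 22.5 CPM in GV oocytes. Its 2 MII counts both lay in MII2, its ratio was -3.82 ± 1.43 and -5.77 without that oocyte, and the fold in CPM was 34.9-fold lower in MII oocytes with a counting interval of 9.58 to 289. Its value is uncertain, since its annotation overlaps a second Atp5o ID, Donson and antisense genes. Atp5s, known as coupling factor B, had 0 MII and 61 GV counts. Taking 3 counts over the stage as the floor, it was 4.46-fold lower in MII oocytes in CPM, with a counting interval from 3.52 upwards.

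The c subunit that forms the rotating ring is made from 3 genes with the same mature protein, and these stood apart. Atp5g1 had 7.42, 29.2 and 115 CPM in MII oocytes and 17.6, 26.5 and 80.0 CPM in GV oocytes. Its ratio was 1.10 ± 1.71, 0.995 without GV5, 0.37 without MII5 and -0.0098 without MII5 and MII6. Atp5g2 had 0.728, 6.36 and 16.1 CPM in MII oocytes and 7.5, 18.0 and 60.1 CPM in GV oocytes, a ratio of -1.10 ± 1.63 that was -0.79 without MII3 and also short of -1 without MII2, MII4, GV4 or GV8. Atp5g3 had 0, 0.577 and 2.47 CPM in MII oocytes and 1.44, 5.42 and 14.3 CPM in GV oocytes, a ratio of -2.0 ± 1.05. Atp5g1 took 86.3% of the c subunit counts in MII oocytes (95% exact interval 82.9 to 89.3) and 55.5% in GV oocytes (53.7 to 57.2). The shares by oocyte were 28.6% to 94.9% in MII and 34.6% to 84.4% in GV oocytes, with MII1 the low one among MII oocytes.

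Many of the low ratios belonged to the shortest genes. Of the measured members, 16 had a coding length of at most 300 bases, and their median ratio was -1.59, with 11 at least 2-fold lower in MII oocytes and 2 higher. All 136 measured protein-coding genes of that length had a median of 0.20, and 25.7% of them were at least 2-fold lower and 25% higher. Of the 11 lower members, only Uqcrh and Cox6c reached the 5 CPM minimum in MII oocytes too, so the filter favoured low ratios here. The 14 members of over 300 and up to 600 bases had a median of -0.01, with 6 at least 2-fold lower and 3 higher. All 854 genes of that length had a median of 0.04, with 20.0% at least 2-fold lower and 17.8% higher. The 5 members of over 600 and up to 1200 bases had a median of -0.99, with 2 at least 2-fold lower. All 2388 genes of that length had a median of 0.09, with 15.4% at least 2-fold lower, so the order by length was not even. The 4 members over 1200 bases, Sdha, Uqcrc2, Atp5a1 and Atp5b, had a median of 0.49, although Uqcrc1, of similar length, was under the minimum at -2.42. Across genes, Spearman's rho between ratio and coding length was 0.35 over the 39 members and -0.10 over 9304 measured protein-coding genes. These are descriptions across genes, which share libraries and depth.

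**Figure D5:**
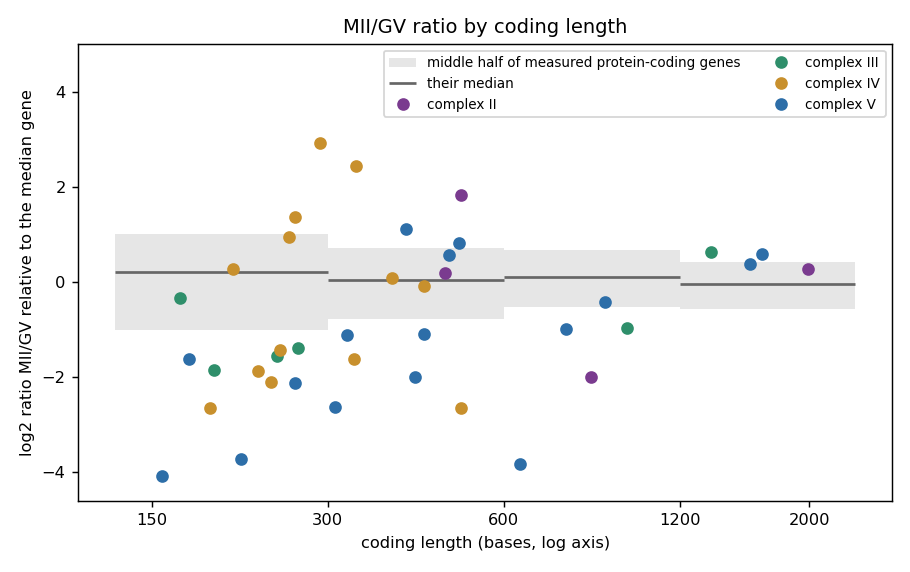
Log2 MII/GV ratio relative to the median gene (y axis) against coding length in bases (x axis, log) for the 39 measured members, coloured by complex. Grey boxes and lines give the middle 50% and the median of all measured protein-coding genes in each length class. The 16 members of at most 300 bases have a median of -1.59, beside 0.20 for all genes of that length. Of those at least 2-fold lower, only Uqcrh and Cox6c reached 5 CPM in MII oocytes.

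Detection of the members was also lower in MII oocytes. With each oocyte thinned to 808641 counts, 28 to 37 of the 48 members had a count in MII oocytes (median 32.5), and 38 to 45 in GV oocytes (median 42). Unthinned, the numbers were 33 to 39 in MII oocytes and 44 to 46 in GV oocytes. Over all genes the thinned medians were 11020 in MII oocytes and 13436 in GV oocytes, so the members followed the direction of the whole libraries. After thinning, 20 members had a count in all 6 MII oocytes and 30 in all 9 GV oocytes. The thinned totals still included the unnamed feature, at 15.7% to 61.2% of counts in MII oocytes and at most 11.2% in GV oocytes. Fewer counts were therefore left for other genes in MII oocytes, and the part of this in the lower detection was not tested.

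The nuclear-encoded genes of complex I, the only ones of that complex taken here, had a like pattern under the same filter. Of these 38 genes, 29 were measured, with a median ratio of -0.92, 13 at least 2-fold lower in MII oocytes and 2 at least 2-fold higher. The shares were 44.8% and 6.90%, beside 15.5% and 12.1% of all measured genes. Of the 13 lower ones, only Ndufa9, Ndufb11 and Ndufv1 reached the 5 CPM minimum in MII oocytes too, so the filter favoured low ratios here as well. The member with the most counts in GV oocytes, Ndufb11, had 10.9, 22.5 and 27.2 CPM in MII oocytes and 26.9, 88.3 and 326 CPM in GV oocytes. The lowest ratio among these genes was that of Ndufc1, with 1 MII and 310 GV counts, and the highest that of Ndufv3, at 1.25 ± 1.17. No test of a difference between complex I and complexes II to V was made.

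The assembly factors of complexes II to V had a median ratio nearer that of the median gene. Of 36 genes, 19 were measured, with a median of 0.16. Beside 15.5% and 12.1% of all measured genes, 6 of these factors (31.6%) were at least 2-fold lower in MII oocytes and 1 (5.26%) higher. Cox10, which makes the haem A precursor of complex IV and had the most counts of them, stood at 102, 224 and 386 CPM in MII oocytes and 213, 245 and 289 CPM in GV oocytes, a ratio of 0.82 ± 0.56. The lowest was Cox14, at -2.63 ± 1.13 with no overlap in CPM, and the highest Lyrm7, a Rieske protein chaperone, at 1.90 ± 2.32. Of the 6 lower factors, only Tmem70 reached the 5 CPM minimum in MII oocytes too. Of the subunits made inside mitochondria, 4 of 6 were measured, with a median of -0.23 that was -0.56 with the first 6 GV oocytes alone and 1.94 with GV7 to GV9 alone, so their direction turned with the GV file set. The most counts fell on mt-Cytb (-0.17 ± 1.60) and mt-Co1 (-0.43 ± 1.36), not scaled to length, and the highest ratio was that of mt-Co3, at 1.55 ± 1.76. Cycs, the cytochrome c of somatic cells, stood at -0.29 ± 1.78, and Hccs, which attaches its haem, at -2.55 ± 1.71.

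Among 8 measured regulators of these genes, 2 (25%, beside 15.5% of all measured genes) were at least 2-fold lower in MII oocytes. Of all measured genes 12.1% were at least 2-fold higher, and none of these regulators was. Nrf1, which encodes NRF-1 and had the most counts of them in both stages, stood at 45.8, 66.8 and 91.7 CPM in MII oocytes and 101, 155 and 208 CPM in GV oocytes, a ratio of -0.17 ± 0.56. Gabpa, the ETS-domain partner of GABP, had 0 MII and 270 GV counts. Its lowest, median and highest CPM in GV oocytes were 0.190, 2.87 and 28.5. With the floor of 3 counts over the stage, it was 19.7-fold lower in MII oocytes in pooled CPM, with a counting interval from 15.9 upwards. Its annotation overlaps Atp5j on the opposite strand by 397 bases. Its partner Gabpb1 had the highest ratio, at 0.33 ± 1.34.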

How the data were processed

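Transcripts of single mouse oocytes (6 MII, 9 GV) were counted by the authors. Each deposited file holds the raw counts of 1 oocyte by Ensembl gene ID, per the file headers and the whole-number values, and stages come from the labels. Per the labels' protocols, 28 PCR cycles amplified the cDNA, which was sheared to 300 bp. Per the submitters' processing notes the build was GRCm39 and the tools included STAR 2.7.10a and cutadapt 4.0. Not given in the sources used here are the counter, its annotation, its use of strand and any molecular identifiers, so genes overlapping on either strand, and close copies such as processed pseudogenes, may share reads. Genes missing from a file were set to 0.

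Symbols, biotypes and lengths came from GENCODE M21 (GRCm38), which named 28402 of 28785 gene IDs. The rest held mainly the unnamed feature, which stayed in the totals. Levels per kilobase used the median length of principal transcripts, which differed by over 2-fold among such transcripts for 4 members. The counts of a stage's oocytes were summed, 0.5 was added, and the ratio was centred on the median of genes that reached 5 CPM in 1 or both stages. Spreads are of log2(CPM + 1) less each oocyte's median gene. Python 3.11.15, numpy 2.4.6, pandas 2.3.3 and scipy 1.17.1 were used, with edgeR 4.0.16 and DESeq2 1.42.0 for alternative scalings of the counts only. The calculation was tested on simulated counts with 200 changed genes. Cells are not replicates of a stage, so no p-value was computed. No doublet call was made, each library being 1 oocyte. Of 51 pairs of oocytes of 1 stage, none agreed within sampling noise (lowest chi-square per degree of freedom 7.26). Intervals (Poisson for sums and folds, exact binomial for shares, 95%) and floors of 3 counts cover counting error only, since PCR copies are not independent molecules. The Poisson interval of the 11 measured members with 100 or more counts in both stages reached at most 20.1% from the MII value and 15.3% from the GV value.

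The members and the 13 gene lists were chosen with earlier results of these data known. Named were all of complex II, in the other complexes the most abundant member per length, the 3 lowest and 3 highest ratios and members with no overlap in CPM, each isoform set, and for each comparison list its most abundant, lowest and highest. Members outside this rule are given by ratio to complete each complex. Other scalings, filters and sets of oocytes were tried as alternatives. The filter on the mean of both stages was chosen after seeing the data.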

Additional observations from a re-analysis of the deposited data

Results flagged for a closer look

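A single oocyte stood far from the others of its stage in 3 of 68 groups of values examined. Chance marks about 1 in 20, so this number of flags is about what chance gives. Cox6a1 was low in GV2, at -2.15 relative to that oocyte's median gene (log2), with the nearest GV oocyte at -0.07, a gap of 0.562 of the range. Uqcr10 was high in MII5, at -1.12 with the nearest MII oocyte at -3.37, a gap of 0.705 of the range. The median level of the complex II members was low in GV2, at -0.81 with the nearest GV oocyte at -0.16, a gap of 0.502 of the range.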

How the results depend on the processing

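Over all alternatives, 793 of 805 values of the 29 named members moved by less than their spread, and 779 kept the sign of the ratio. The spread is that between single oocytes and is wide, so a value that moved by less than it could still turn in sign. Of the 26 that turned, 11 came from scalings with no centring, and the other 15 were values of Sdha, Sdhd, Uqcr11, Cox8a, Atp5g1 and Atp5h. Of 145 values of the 5 medians, 135 kept their sign, and those that turned were of complexes II, IV and V. Without centring, the median of complex II was -0.76. On that scale 2 members were at least 2-fold higher in MII oocytes, where 2.01% of all measured genes were. With a minimum of 20 CPM, the median of complex IV was -1.86 and that of complex V turned to 0.27. At that minimum, 8 of 16 members were at least 2-fold lower and 2 higher, where 9.24% and 9.51% of 6107 genes were. Against GV7 to GV9 alone, 3 were higher, where 20.6% of all measured genes were. Atp5g1 turned to -0.0098 without MII5 and MII6. The causes were not tested, apart from the fewer genes that the stricter minimum leaves. Leaving out 1 oocyte at a time gave medians of -1.25 to -0.64 for all measured members, -0.16 to 0.39 for complex II, -1.59 to -0.92 for complex III, -0.58 to 0.18 for complex IV and -1.48 to -0.82 for complex V. It gave 14 to 22 lower and 4 to 8 higher members, where 14.1% to 17.3% and 10.4% to 13.5% of all measured genes were. The median gene stood at -0.11 with TMM scaling, -0.06 with median-of-ratios scaling and -0.29 with totals that leave out the unnamed feature. No paired analysis was possible because the results come from no test and the oocytes of the stages share only a number. MII depth limits the low members: 3 counts over the stage are 0.311 CPM in MII and 0.0683 CPM in GV oocytes.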
